A study of Mus musculus with 12 samples.

Results

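Rhabdoid tumors labelled Cheek, 3 of the 12 tumors sequenced, were compared with the 9 tumors of the other 4 labelled locations. The groups were set by that label alone, but the comparison itself was chosen with earlier results of these data known. All 12 arose in P0-CreC;Smarcb1 flox/flox mice, in which a Cre driven by the P0 promoter removes both copies of Smarcb1 (a core subunit of the SWI/SNF chromatin remodelling complex) from early neural crest cells and the Schwann cell lineage. No normal nerve and no Smarcb1-intact tumor was part of the comparison, and the labels give neither age nor sex. The other tumors were Retro-orbital (4), Meninges (3), Vestibular N (1) and Trigeminal N (1). The location key of the study counts 3 tumors of the maxillary nerve and none of the cheek, and by these equal numbers the cheek tumors are taken to be the maxillary ones. Tumors are named by location and a running number that carries no pairing.

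The maxillary nerve is the branch of the trigeminal nerve that supplies the middle of the face. The mesenchyme around it comes from cranial neural crest that keeps no Hox gene active and is patterned by homeobox factors of the jaw. Mab21l2 codes for a nuclear protein of the Mab21 family that is needed for the developing eye and is active in facial mesenchyme. Irs4 codes for an insulin receptor substrate, an adaptor that couples insulin and IGF receptors to PI3-kinase, and sits on the X chromosome.

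The values were RPKM, fragments scaled to gene length and to the fragment total of the tumor. Steps between low RPKM values gave totals of 13206168 to 57128422 fragments per tumor, with 28346152 in Cheek 1, 32624865 in Cheek 2 and 13206168 in Cheek 3. Over 15043 genes with at least 1 RPKM in 3 or more tumors, log2(RPKM + 1) was compared with limma, and a gene was called at a Benjamini-Hochberg adjusted p under 0.05. Adding 1 shrinks differences of weakly expressed genes. Smarcb1, the deleted gene, stood at 4.58, 3.68 and 3.20 RPKM in Cheek 1, 2 and 3 and between 1.70 and 6.31 RPKM in the other tumors. Which exons are deleted is not given in the sources used here, so this level over the whole gene does not check the deletion.

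The 3 cheek tumors were not alike. Cheek 2 and Cheek 3 share the first part of their tumor identifier, whose meaning is not given in the sources used here, and correlated at r = 0.98 across the 15043 genes (genes are not independent replicates), with 310 genes more than 2-fold apart on the log2(RPKM + 1) scale. Their fragment numbers still differed by far more than sampling noise, with a chi-square of 33.8 per degree of freedom over 2098 genes. Cheek 1 correlated with them at 0.86 and 0.85, and with the Vestibular N and Trigeminal N tumors at 0.90 each. It shares the first part of its identifier with Meninges 1, with which it correlated at 0.89. Xist, the RNA of the inactive X chromosome, stood at 76.6 RPKM in Cheek 1 and at 0.22 and 0.30 RPKM in Cheek 2 and 3, while the Y-linked Eif2s3y stood at 0.46, 81.3 and 70.0 RPKM. The cheek tumors therefore hold a female and a male profile, and tests over 3 tumors may rest on 2 animals. Retro-orbital 3 and Trigeminal N 1 also share the first part of their identifier, so the other tumors may hold repeated animals too. The pair of Cheek 1 and Meninges 1 spans both compared groups. Averaging Cheek 2 and 3, as done below, leaves the other pairs as they are. All of these pairs share a block where the identifier is fitted as a random block.

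Irs4 and Lcn11 rose in the cheek tumors, 2 of the 15043 genes tested (0.0133%), and no gene fell (0%). At an unadjusted p under 0.05 stood 852 genes toward higher and 1182 toward lower values. Irs4 (chrX:141710998-141725263, minus strand, GENCODE M21 on GRCm38) was at 8.05, 20.1 and 20.7 RPKM in Cheek 1, 2 and 3. In the other tumors its lowest, median and highest levels were 0.012, 0.11 and 2.13 RPKM. Cheek 1 was the lowest of the 3 and still stood above every other tumor, and the highest of the others was Vestibular N 1. These levels rested on at least 1425 fragments in a cheek tumor and at most 378 in any other. The difference in mean log2(RPKM + 1) was 3.59 (SE 0.40, adjusted p = 0.0104 by limma, higher in 3 of 3 cheek tumors).

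Lcn11 (chr2:25777017-25780279, plus strand), a gene of the lipocalin family of small secreted carrier proteins, was low throughout. It stood at 3.52, 1.74 and 3.02 RPKM in Cheek 1, 2 and 3, from 65, 37 and 26 fragments. In the other tumors the median was 0 and the highest level 0.42 RPKM, 8 fragments in Retro-orbital 2. The difference was 1.76 on the log2(RPKM + 1) scale (SE 0.21, adjusted p = 0.0138 by limma), and the groups did not overlap. Irs4 and Lcn11 both met the filter of 1 RPKM in 3 or more tumors only with the cheek tumors counted. Without a filter their adjusted p-values were 0.00556 and 0.00289 by limma.

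Mab21l2 (chr3:86545581-86548629, minus strand) did not pass in the same test. Its levels were 49.2, 38.3 and 36.3 RPKM in Cheek 1, 2 and 3 against a lowest, median and highest level of 0.77, 1.60 and 8.75 RPKM elsewhere. All cheek tumors lay above all others, with Vestibular N 1 and Trigeminal N 1 (8.53 RPKM) nearest to them. The difference was 3.55 (SE 0.55, adjusted p = 0.0622 by limma). With the first part of the identifier as a random block it was 3.93 and passed, with an adjusted p of 0.042. Leaving out Vestibular N 1 and Trigeminal N 1, the 2 tumors nearest to the cheek tumors, gave 3 cheek tumors against 7. The difference was then 3.96 with an adjusted p of 0.0052 by limma. Since these 2 tumors held the highest levels outside cheek, leaving them out raises the difference of itself, and this p adds no evidence. Over the 12 single leave-outs the adjusted p for Mab21l2 ranged from 0.0201 to 0.412 by limma.

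With Cheek 2 and 3 averaged into 1 sample, 2 against 9, no gene passed. Irs4 and Lcn11 then had an adjusted p of 0.1 and Mab21l2 of 0.522 by limma, at differences of 3.39, 1.83 and 3.61. Without Cheek 2 or without Cheek 3 Irs4 had an adjusted p of 0.101 or 0.124, and without Cheek 3 Lcn11 had 0.124. A pseudocount of 0.1 in place of 1 gave 0.0518 for Irs4 and 0.0636 for Lcn11.

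**Figure D1:**
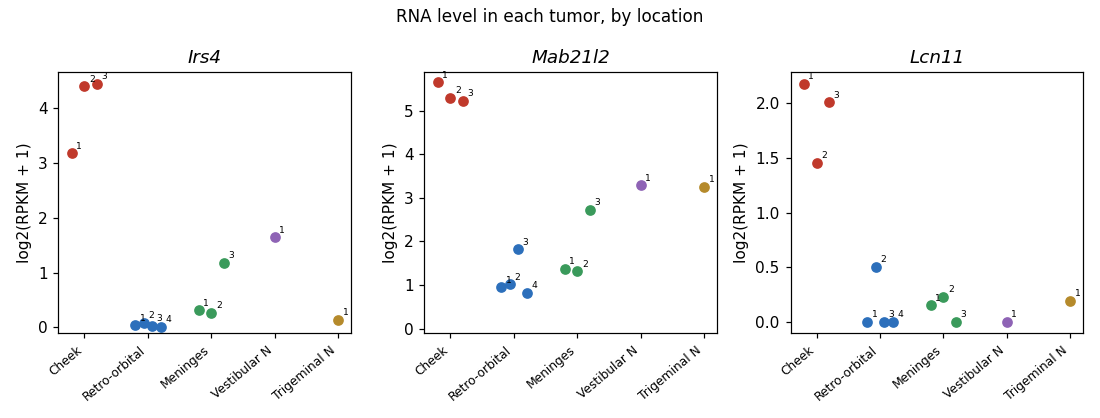
Level of Irs4, Mab21l2 and Lcn11 in log2(RPKM + 1) (vertical axis) in each of the 12 tumors (points, with the tumor's number) by location (horizontal axis). In each panel the 3 cheek tumors lie above the other 9, and for Irs4 Cheek 1 (8.05 RPKM) lies below Cheek 2 and 3 (20.1 and 20.7 RPKM).

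Against single locations, with 1 mean per location fitted over all 12 tumors, 4 genes were called between cheek and Retro-orbital (0.0266%), all higher in cheek. These were Mab21l2 (4.24, SE 0.39), Irs4 (3.96, SE 0.37), the type III collagen gene Col3a1 (2.19, SE 0.27) and Slc22a17 (2.15, SE 0.23), which codes for a lipocalin receptor. Col3a1 stood at 1648, 2207 and 1530 RPKM in Cheek 1, 2 and 3 and reached 499.5 RPKM at most in the Retro-orbital tumors. Their limma adjusted p-values were 0.00858 for the first pair, 0.0418 for Col3a1 and 0.0224 for Slc22a17. Between cheek and Meninges 7 genes were called (0.0465%). Mab21l2 (3.58, SE 0.41), Irs4 (3.42, SE 0.40), the RNA-binding protein gene Igf2bp2 (3.14, SE 0.40) and the thrombospondin gene Thbs4 (3.03, SE 0.29) rose. Hoxd10 (-3.17, SE 0.33), Hoxd11 (-2.58, SE 0.28) and the scramblase family gene Plscr5 (-4.87, SE 0.60) fell. Hoxd10 reached 0.15 RPKM at most in the cheek tumors and 5.74 to 14.6 RPKM in the Meninges tumors. It was low in the Retro-orbital tumors too, at 0.020 to 0.40 RPKM, where Hoxd11 reached 0.32 and Plscr5 4.51 RPKM at most. Thbs4 stood at 21.6 to 24.4 RPKM in cheek and 11.5 to 23.3 RPKM in Retro-orbital. Slc22a17 stood at 22.1 to 38.7 RPKM in cheek and 21.0 to 28.3 RPKM in Meninges. These genes thus did not set cheek apart from both locations. Both comparisons use the same cheek tumors, and with Cheek 2 and 3 averaged neither called a gene. The same held without Cheek 2 or without Cheek 3, without Retro-orbital 4 for the first comparison and without Meninges 1 for the second, while without Cheek 1 the counts were 152 and 539.

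The sequence before each of the 3 genes is shown because they are the 2 called genes and Mab21l2. Each run is the 250 bases before the RefSeq start on GRCm38.p6, 5′ to 3′ on the strand of the gene, with matches to 5 searched motifs in capitals. On either strand, TATAAA is held by 12.4% of the 32851 such stretches of RefSeq genes, CCAAT by 33.8%, GGGCGG by 32.7%, TAATTA by 4.84% and CACGTG by 6.02%.
Irs4, chrX:141725218-141725467, minus strand: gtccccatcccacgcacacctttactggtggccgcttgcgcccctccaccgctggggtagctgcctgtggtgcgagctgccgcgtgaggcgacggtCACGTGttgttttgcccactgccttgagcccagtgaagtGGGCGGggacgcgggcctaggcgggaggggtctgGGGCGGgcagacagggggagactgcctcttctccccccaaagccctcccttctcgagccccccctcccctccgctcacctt
Mab21l2, chr3:86548284-86548533, minus strand: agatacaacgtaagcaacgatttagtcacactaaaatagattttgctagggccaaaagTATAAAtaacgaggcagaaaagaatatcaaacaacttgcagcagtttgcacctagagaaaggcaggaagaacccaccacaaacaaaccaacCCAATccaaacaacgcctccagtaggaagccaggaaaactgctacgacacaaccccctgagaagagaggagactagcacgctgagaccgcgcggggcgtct
Lcn11, chr2:25776767-25777016, plus strand: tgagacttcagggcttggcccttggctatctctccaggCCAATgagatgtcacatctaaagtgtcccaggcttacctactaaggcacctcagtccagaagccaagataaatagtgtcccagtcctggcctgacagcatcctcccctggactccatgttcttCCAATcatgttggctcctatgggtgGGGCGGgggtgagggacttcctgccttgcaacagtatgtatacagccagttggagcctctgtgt
The stretch before Irs4 is 69.2% G and C and holds GGGCGG at 2 places and CACGTG at 1. That before Mab21l2 is 46.8% G and C, with 1 TATAAA and 1 CCAAT, and that before Lcn11 is 53.6%, with CCAAT at 2 places and GGGCGG at 1. No motif was in all 3 stretches. The RefSeq starts differ from the GENCODE spans given above. By GENCODE the Mab21l2 stretch, with its 2 motifs, lies wholly inside the gene. The Irs4 stretch lies inside its gene from 141725218 to 141725263, a part that holds none of its motifs.

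Mab21l2 lies within Lrba (chr3:86224680-86782692), which runs on the plus strand and codes for a protein of vesicle trafficking. Lrba stood at 63.2, 29.6 and 27.3 RPKM in Cheek 1, 2 and 3 and at 5.51 to 37.0 RPKM elsewhere, so its groups overlapped. The kit keeps the strand, but whether the counting used it is not given in the sources used here, and without it reads of the 2 genes could not be told apart. Of the other genes tested within 500 kb, Dclk2, a microtubule-associated kinase gene 237.5 kb away, lay above all others in the cheek tumors, at 15.8, 5.84 and 5.50 RPKM against 0.54, 2.40 and 4.27 RPKM (lowest, median, highest). Within 500 kb of Irs4 lie the type IV collagen genes Col4a5 and Col4a6, which share a start region. Col4a6 stood at 12.1, 10.1 and 9.00 RPKM in the cheek tumors against 0.14, 1.77 and 6.64 RPKM elsewhere, without overlap (difference 2.03, SE 0.51, adjusted p = 0.176 by limma). Col4a5 stood at 20.2, 12.1 and 11.0 RPKM against 0.98, 3.83 and 12.9 RPKM, with overlap. The 500 kb window and these neighbours were chosen after the values were seen.

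Beyond the called genes, the 3 cheek tumors lay above all 9 others in 186 of the 15043 genes (1.24%) and below all of them in 216 (1.44%). These genes are described by their values, and other than Irs4 and Lcn11 none passed the test. Without Cheek 1 the counts were 969 and 1855. Keratin genes of the oral lining were among those above all others. Krt13 stood at 2.68, 77.0 and 463.0 RPKM in Cheek 1, 2 and 3 and at most at 0.53 RPKM elsewhere (difference 5.30, SE 0.95, adjusted p = 0.0824 by limma). Krt4, its pairing partner, stood at 1.84, 42.1 and 202.3 RPKM and at most at 0.34 RPKM elsewhere. Krt6b stood at 1.78, 6.15 and 107.4 RPKM against a highest value of 0.35 RPKM. The 3 tumors differed widely in these genes, with Cheek 3 the highest and Cheek 1 the lowest. All 3 keratin genes met the filter through the cheek tumors alone, since no other tumor reached 1 RPKM.

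The rest included receptor and secreted-protein genes. Il1rl1, the receptor for interleukin 33, stood at 8.23, 137.7 and 142.4 RPKM in Cheek 1, 2 and 3 against a highest value of 4.25 RPKM elsewhere (difference 4.63, SE 0.74, adjusted p = 0.0622 by limma). Ramp3, which modifies the calcitonin receptor-like receptor, stood at 20.3, 189.7 and 206.6 RPKM and reached 18.6 RPKM elsewhere. Pcsk6, a proprotein convertase that cleaves TGF-beta family precursors, stood at 7.20, 54.9 and 52.0 RPKM against at most 3.64 RPKM. In all 3 of these genes Cheek 2 and 3 were close to each other and several times above Cheek 1.

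Ddc showed another pattern. This gene, for the decarboxylase that makes dopamine and serotonin, stood at 225.9, 225.5 and 202.2 RPKM in Cheek 1, 2 and 3 and between 2.003 and 79.1 RPKM elsewhere, with a median of 29.8 RPKM. Its 3 cheek levels were close to each other. Tes, a focal adhesion protein gene, stood at 28.5, 162.1 and 142.1 RPKM and reached 25.5 RPKM elsewhere. Bpifb9b, a gene of the BPI fold family, was mainly a Cheek 1 gene, at 407.5, 5.62 and 2.15 RPKM against at most 1.48 RPKM. It too met the filter only with the cheek tumors counted.

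Downward, the microRNA locus is described further on, and the other named genes follow here. S100b, a calcium-binding protein of Schwann cells and astrocytes, stood at 1.68, 0.74 and 0.59 RPKM in Cheek 1, 2 and 3 and at 1.82, 12.5 and 32.5 RPKM elsewhere (lowest, median, highest). The difference was -2.45 (SE 0.65, adjusted p = 0.186 by limma). Kif1a, a motor of axonal transport, stood at 1.34, 0.24 and 0.22 RPKM against at least 1.55 RPKM. Nrcam, an adhesion molecule of axons, stood at 0.60, 0.22 and 0.44 RPKM against at least 1.11 RPKM. Syt11, a synaptotagmin gene, stood at 2.15, 0.64 and 0.58 RPKM against at least 3.25 RPKM, and Pianp at 2.32, 0.066 and 0.26 RPKM against at least 2.92 RPKM. In all but Nrcam, Cheek 1 lay just under the lowest of the other tumors and Cheek 2 and 3 well below it.

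The other separated genes were of mixed function. Adamts20, a secreted metalloprotease that cleaves versican, stood at 0.45, 0.20 and 0.24 RPKM in the cheek tumors and at 1.33 to 79.4 RPKM elsewhere (difference -3.55, SE 0.95, adjusted p = 0.186 by limma). Fgf2, a fibroblast growth factor, stood at 1.32, 0.53 and 1.09 RPKM against at least 1.62 RPKM. Gatm, the first enzyme of creatine synthesis, stood at 11.9, 9.00 and 10.8 RPKM against at least 17.98 RPKM. Atp6v0e2, a subunit of the proton pump of lysosomes, stood at 3.10, 1.94 and 1.07 RPKM against at least 4.30 RPKM (adjusted p = 0.0622 by limma). The myeloid receptor gene Clec7a, the class II accessory gene H2-DMb2 and the kinase gene Pim1 completed the group, with highest cheek levels of 3.42, 0.58 and 15.3 RPKM and lowest levels elsewhere of 4.25, 1.11 and 18.04 RPKM.

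Precursor and host transcripts of a microRNA cluster were among the lowest in the cheek tumors, and were chosen for description after their values were seen. 2810055G20Rik (Mir99ahg in RefSeq, chr16:77236317-77773427) spans Mir99a and Mirlet7c-1. The mature products, from RefSeq on GRCm38.p6, are shown with the seed (bases 2 to 8) in capitals, and their seeds differ.
mmu-miR-99a-5p: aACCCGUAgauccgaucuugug
mmu-let-7c-5p: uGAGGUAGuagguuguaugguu
The host transcript stood at 2.62, 0.65 and 0.89 RPKM in Cheek 1, 2 and 3 and at 8.89, 18.8 and 38.1 RPKM elsewhere (lowest, median, highest). Its difference of -3.17 (SE 0.46, adjusted p = 0.0588 by limma) was the one nearest to the threshold among genes toward lower values. Reads over the Mir99a locus gave 9.23, 1.89 and 3.49 RPKM against at least 14.5 RPKM. Reads over Mirlet7c-1 gave 6.76, 0.65 and 0 RPKM, from 18, 2 and 0 fragments, against a lowest value of 6.57 RPKM in Meninges 1, so that Cheek 1 overlapped. These are long-RNA reads over the precursor, not measurements of the mature microRNAs.

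**Figure D2:**
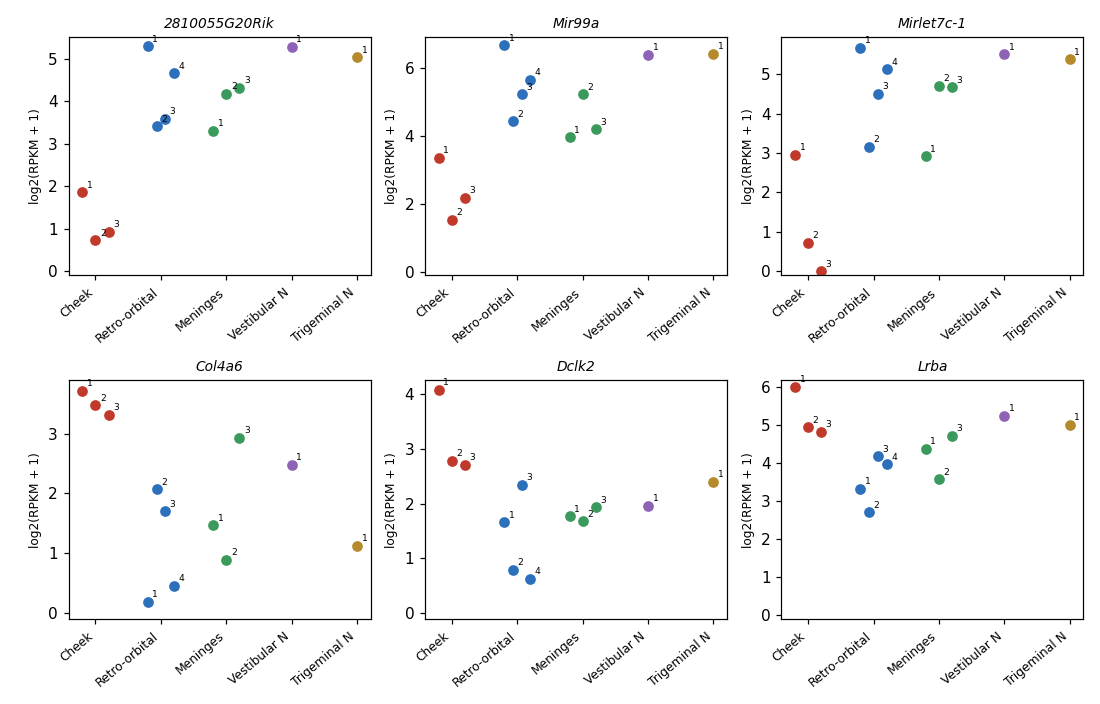
Level in log2(RPKM + 1) (vertical axis) of the host transcript 2810055G20Rik, Mir99a, Mirlet7c-1 and the neighbours Col4a6, Dclk2 and Lrba in each tumor (points, with the tumor's number) by location. The host transcript and Mir99a are lower in the 3 cheek tumors than in the other 9, Col4a6 and Dclk2 are higher, and Mirlet7c-1 and Lrba overlap.

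The genes with the largest gaps between Cheek 1 and the pair were described in each direction. Toward the pair, Nefl, the light neurofilament, stood at 4.35, 411.7 and 334.8 RPKM in Cheek 1, 2 and 3 and reached 12.5 RPKM at most in the 9 other tumors. Grp, gastrin-releasing peptide, stood at 5.12, 326.7 and 278.9 RPKM. Lhx8, a homeobox factor of the upper jaw, stood at 0.61, 91.8 and 91.1 RPKM, and the muscle actin gene Acta1 at 1.46, 195.5 and 106.3 RPKM. Toward Cheek 1, Aard stood at 748.7, 1.75 and 1.12 RPKM and the cartilage matrix gene Matn3 at 413.3, 0.67 and 0.85 RPKM. Nts (neurotensin) stood at 198.2, 0.94 and 0.26 RPKM, and Agtr2, an angiotensin receptor, at 247.5, 1.78 and 0.63 RPKM. Ltf (lactoferrin) stood at 367.5, 2.08 and 2.51 RPKM and the amino acid transporter gene Slc6a14 at 154.1, 0.80 and 0.60 RPKM. Some other tumors were also high in Matn3, Nts and Ltf, whose highest levels elsewhere were 540.8, 153.4 and 2344 RPKM. Those of Aard, Agtr2 and Slc6a14 were 117.5 (Trigeminal N 1), 98.9 (Meninges 1) and 13.8 RPKM. Those of Grp, Lhx8 and Acta1 were 46.6 (Retro-orbital 4), 37.6 (Retro-orbital 2) and 62.8 RPKM (Retro-orbital 1).

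**Figure D3:**
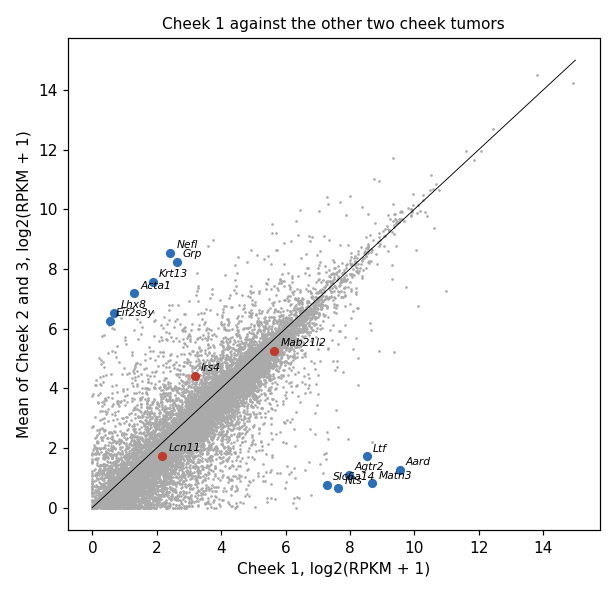
Level of each of the 15043 genes in Cheek 1 (horizontal axis) against the mean of Cheek 2 and 3 (vertical axis), both in log2(RPKM + 1), with equal levels on the line. The 6 named genes with the largest gaps each way are blue. Of the 3 red genes, Mab21l2 and Lcn11 lie near the line, and Irs4 lies above it (Cheek 1 minus the mean of the pair, -1.24).

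Leaving out Cheek 1 moved the result most. Cheek 2 and 3 against the 9 others gave 247 genes higher (1.64%) and 150 lower (0.997%) at an adjusted p under 0.05 by limma. They included 29 of the 186 genes with all 3 cheek tumors above and 23 of the 216 with all 3 below. Krt13, Krt4, Il1rl1, Pcsk6, Nefl and Msx1 were among the higher ones, and Atp6v0e2, Pianp and Syt11 among the lower ones. Because Cheek 2 and 3 share the first part of the identifier, this test may compare 1 animal with the rest.

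Of 22 jaw mesenchyme factors tested, none passed or was free of overlap, and 11 had higher and 11 lower mean values in the cheek tumors (median difference -0.01, against -0.10 over all genes tested, and 0.08 against 0.00 after quantile normalization). Msx1, a homeobox factor of facial mesenchyme and tooth, stood at 3.91, 24.5 and 25.7 RPKM in Cheek 1, 2 and 3 and reached 5.83 RPKM elsewhere. Hand2, a factor of the lower jaw and of sympathetic neurons, stood at 0.63, 0.16 and 0.10 RPKM against 0.13, 5.26 and 85.1 RPKM (lowest, median, highest). Jaw factors thus gave no common direction, and Lhx8 and Msx1 separated Cheek 2 and 3 from Cheek 1. None of 18 frontonasal and periocular factors passed (7 higher, 11 lower in mean, median -0.55). Over all 15043 genes tested, 6103 were higher and 8940 lower in mean, and the counts of each list stand beside that split. In that list Pax3 stood at 2.41, 43.1 and 38.5 RPKM against at most 16.0 RPKM, and Eya1 at 5.78, 14.5 and 14.9 RPKM against at most 15.2 RPKM.

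All 17 Hox cluster genes tested had lower mean values in the cheek tumors (median difference -0.76; 1 of them higher after quantile normalization), and none passed. Summed over the 39 genes of the list, the level was 117.2 RPKM in Cheek 1, 2.49 in Cheek 2 and 1.85 in Cheek 3, and ranged from 1.43 to 230.8 RPKM elsewhere. Cheek 1 thus stood above the median elsewhere of 53.9 RPKM and below Meninges 1 only, while Cheek 2 and 3 were at the low end of the range. Hoxd8 stood at 1.03, 0.97 and 0.46 RPKM and Hoxd9 at 0.20, 0.23 and 0.18 RPKM, against medians of 2.93 and 0.86 RPKM elsewhere. Their lowest levels elsewhere were 0.42 RPKM in Vestibular N 1 and 0 in Retro-orbital 1. Of the Mab21-like family, Mab21l1 went with no location pattern like that of Mab21l2, at 11.8, 3.25 and 3.35 RPKM in the cheek tumors against 0.88, 5.13 and 67.9 RPKM.

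In the insulin and IGF pathway 1 of 30 genes tested passed, Irs4, and 10 had higher and 20 lower mean values in the cheek tumors (median difference -0.30). Over all 15043 genes tested 0.0133% passed toward higher values and 8940 were lower in mean. Igf2bp2, an RNA-binding protein of IGF2 and other transcripts, stood at 17.4, 17.2 and 17.5 RPKM in Cheek 1, 2 and 3 and at 0.60, 1.46 and 9.71 RPKM elsewhere. Its 3 cheek levels were nearly equal and did not overlap the others (difference 2.42, SE 0.55, adjusted p = 0.15 by limma). Its highest other values were in the Retro-orbital tumors, at 2.56 to 9.71 RPKM. The substrates related to Irs4 had no such pattern, with Irs1 at 5.31, 1.12 and 1.35 RPKM and Irs2 at 13.4, 2.73 and 3.45 RPKM against medians of 6.14 and 7.69 RPKM. The growth factor gene Igf2 stood at 38.4, 1.71 and 1.84 RPKM against a median of 128.8 RPKM, and the adaptor gene Grb10 at 51.5, 572.8 and 596.2 RPKM against a median of 27.5 RPKM. Pik3cb, a catalytic PI3-kinase subunit, lay below all others, at 4.57, 2.28 and 4.07 RPKM against at least 5.67 RPKM.

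Among secreted signals and their pathways, no list had a gene past the threshold. Beside the splits below, 8940 of all 15043 genes tested were lower in mean. In the Wnt list (34 tested, 14 higher and 20 lower in mean) the antagonist Sfrp4 stood at 129.8, 947.7 and 998.0 RPKM against at most 520.7 RPKM, and the Wnt-inactivating enzyme gene Notum at 6.71, 45.5 and 38.9 RPKM against at most 7.81 RPKM. Lef1, the nuclear partner of beta-catenin, lay below all others, at 0.632, 0.374 and 0.493 RPKM against at least 0.64 RPKM. In the FGF list (22 tested, 7 higher, 15 lower) Fgf7, a growth factor for epithelium, stood at 28.0, 100.4 and 88.2 RPKM against a median of 4.23 RPKM. Retro-orbital 1, at 66.0 RPKM, was above Cheek 1. In the BMP list (25 tested, 14 higher, 11 lower, median difference 0.39) the antagonist Grem1 stood at 1.44, 61.5 and 60.9 RPKM and the ligand Bmp5 at 7.17, 0.38 and 0.15 RPKM. In the Hedgehog list (11 tested, 3 higher, 8 lower) the pathway targets Ptch1 and Hhip stood at 10.3, 3.60 and 4.995 RPKM and at 0.37, 0.14 and 0.12 RPKM, against medians of 20.3 and 3.02 RPKM. Low levels were not particular to cheek. Ptch1 stood at 5.15 and 4.75 RPKM in Retro-orbital 1 and 2, and Hhip at 0.17, 0.090 and 0.33 RPKM in Retro-orbital 1, 2 and 4. In the retinoic acid list (19 tested, 6 higher, 13 lower) the binding protein gene Crabp1 stood at 103.9, 518.8 and 582.7 RPKM against a median of 22.0 RPKM. Its highest level elsewhere, 984.6 RPKM in Retro-orbital 2, was above all 3 cheek tumors.

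In the neurotrophin and GDNF list (12 tested, 4 higher, 8 lower) the receptor gene Ret was a Cheek 1 gene, at 45.4, 0.26 and 0.23 RPKM, and the neurotrophin receptor gene Ntrk3 stood at 2.30, 16.2 and 19.3 RPKM. Neural crest specifiers (13 tested, 6 higher, or 9 after quantile normalization, and none passing) held Snai2, a repressor of epithelial genes, at 68.0, 48.3 and 50.5 RPKM against a median of 8.31 and a highest value of 51.4 RPKM, and Twist2 at 0.27, 5.12 and 5.25 RPKM. Of 16 Schwann cell lineage genes 2 had higher and 14 lower mean values (median difference -0.80, none passing). Besides S100b, Fabp7, a fatty acid binding protein of immature glia, stood at 1.11, 0.32 and 0.40 RPKM against a median of 7.86 RPKM. It was as low in Retro-orbital 1 and 4, at 0.34 and 0.064 RPKM.

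Fibrillar matrix genes leaned upward without passing, with 16 of 22 higher in mean and a median difference of 0.52. Col3a1 and Col1a2 lay above all other tumors, Col1a2 at 1237, 1424 and 1105 RPKM against at most 973.3 RPKM. Col12a1 stood at 135.0, 186.7 and 190.3 RPKM and Col6a1 at 98.4, 397.1 and 332.8 RPKM against medians of 37.5 and 108.9 RPKM. Both overlapped the other tumors, with highest levels elsewhere of 144.2 and 577.0 RPKM in Retro-orbital 2. Proliferation genes differed little (14 of 20 higher, median 0.12), with Mcm6 at 42.7, 58.1 and 59.1 RPKM and Cdk1 at 45.3, 38.3 and 31.2 RPKM against medians of 33.5 and 23.7 RPKM. Of 12 cartilage and bone genes 4 were higher and 8 lower in mean (median difference -0.34). The largest differences were toward higher values, in Col9a2 at 2.47, 10.7 and 4.25 RPKM and Runx2 at 2.54, 8.07 and 10.5 RPKM against medians of 0.91 and 2.42 RPKM elsewhere. Both overlapped the other tumors, whose highest levels were 7.14 and 6.89 RPKM. The chondrocyte factor gene Sox9 stood at 1.55, 0.163 and 0.931 RPKM against a median of 3.02 RPKM. Of the 3 subgroup genes of the study that could be tested, Trpm3 stood at 3.17, 0.18 and 0.28 RPKM and Hdgfrp3 at 1.87, 9.05 and 7.27 RPKM, and none passed.

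Markers of other cell types varied from tumor to tumor, also within a location, and their part in the results above was not tested. In bulk RNA fewer cells of a type and less RNA per cell cannot be told apart. Summed over 14 surface epithelium markers, among them Krt13 and Krt4, the level was 356.0, 203.7 and 1464 RPKM in Cheek 1, 2 and 3 and 10.3 to 663.3 RPKM elsewhere. In this list 10 of the 12 tested genes were higher and 2 lower in mean (median difference 1.61). The epithelial adhesion genes did not go with the keratins, with Cdh1 at 19.5, 0.57 and 3.38 RPKM against a median of 30.4 RPKM and Epcam at 123.9, 10.6 and 9.19 RPKM against a median of 57.2 RPKM. The 18 skeletal muscle markers summed to 78.2, 818.5 and 447.2 RPKM against 18.9 to 499.2 RPKM, with 14 of 16 tested genes higher in mean. The 9 salivary gland markers summed to 25.3, 242.7 and 232.6 RPKM, nearly all of it Aqp5, a water channel also found in other glands, at 21.7, 236.1 and 231.5 RPKM. The adipocyte genes Fabp4 and Cfd stood at 24.2 and 5.85 RPKM in Cheek 2 and at 2.15 and 0.19 RPKM in Cheek 1.

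Astrocyte and oligodendrocyte markers were low in mean in all 9 genes tested (median difference -1.27, none passing). Their sum was 23.0, 3.51 and 3.05 RPKM in Cheek 1, 2 and 3 against 3.04, 151.6 and 472.2 RPKM elsewhere (lowest, median, highest). Retro-orbital 1, 2 and 4 had similarly low sums, at 3.04, 7.26 and 26.0 RPKM, so a low glial level was not particular to cheek. Gfap stood at 0.59, 0.32 and 0.35 RPKM and Slc1a3 at 3.16, 1.44 and 0.90 RPKM, against medians of 65.1 and 29.3 RPKM. In Retro-orbital 1 and 2 Gfap stood at 0.63 and 0.31 RPKM. Of 9 neuronal markers 8 were lower in mean, and Gad1 and Syn1 lay below all others. Their sum was 16.3, 44.7 and 45.0 RPKM against 30.7 to 171.7 RPKM, and Syt1 stood at 1.32, 0.24 and 0.22 RPKM against a median of 5.61 RPKM. The 18 leukocyte markers summed to 830.6, 1518 and 1678 RPKM against 739.1 to 6378 RPKM, inside the range of the other tumors, with 3 of 13 tested genes higher in mean. S100a8 stood at 4.32, 16.6 and 66.1 RPKM and Cd3g at 1.28, 0 and 0 RPKM.

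The remaining marker lists were near the other tumors. Endothelial markers (6 of 10 higher in mean, median difference 0.01) summed to 65.0 to 77.5 RPKM in the cheek tumors against 28.6 to 137.2 RPKM, with Cldn5 at 6.65, 0.84 and 1.76 RPKM. Erythroid, retina and lens, tooth and olfactory markers had 1 or 2 testable genes each. Alas2 stood at 5.13, 5.25 and 5.66 RPKM, Cryba1 at 2.27, 1.53 and 1.996 RPKM, Amelx at 3.50, 0.79 and 0.39 RPKM and Gng13 at 2.81, 16.5 and 30.5 RPKM, and each overlapped the other tumors.

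**Figure D4:**
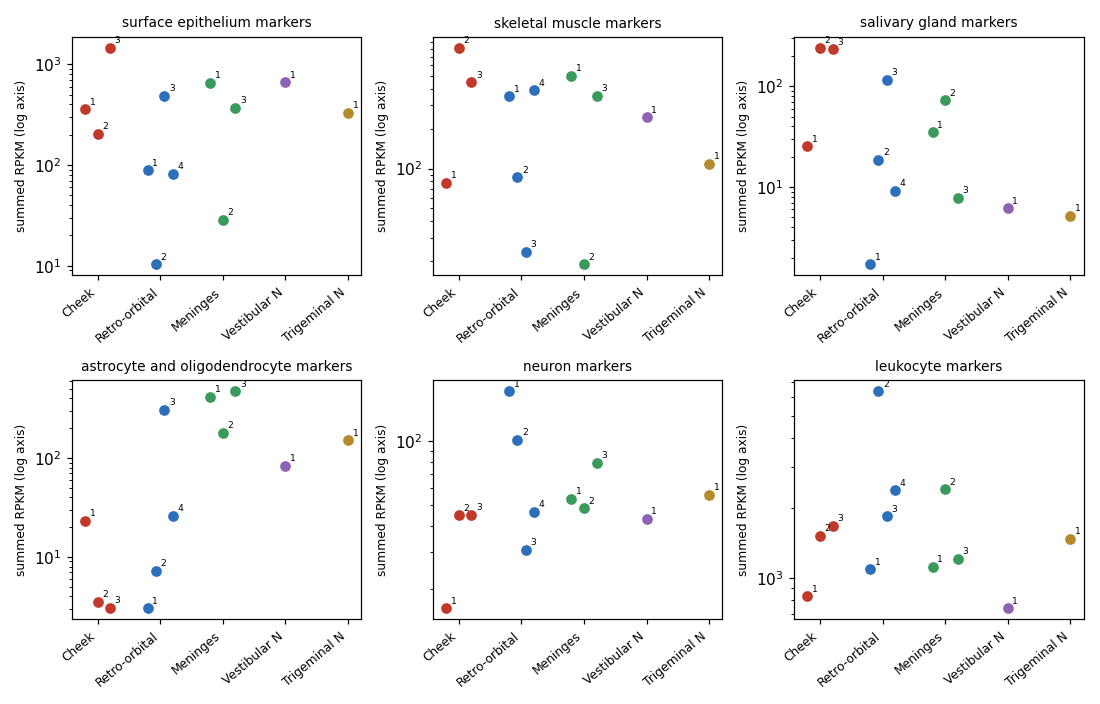
Summed RPKM (vertical axis, log scale) of 6 lists of markers of other cell types in each tumor (points, with the tumor's number) by location. Cheek 3 has the highest epithelial sum (1464 RPKM) and Cheek 2 the highest muscle sum (818.5 RPKM). The glial sum is 23.0 RPKM or lower in all 3 cheek tumors and in Retro-orbital 1 and 2.

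Lists for 3 further groups were drawn up after the values were seen, so that their counts are descriptions only. Of 74 lysosomal genes 64 had lower and 10 higher mean values in the cheek tumors, with a median difference of -0.52. Over all genes tested 8940 of 15043 were lower. None passed, and 12 (Atp6v0e2, Atp6v1c1, Ctso, Dpp7, Grn, Ifi30, Man2b1, Man2b2, Naglu, Neu1, Npc2 and Ppt1) lay below all others, against 1.44% of all genes tested. The summed level was 4465, 3459 and 3325 RPKM in Cheek 1, 2 and 3 against 4113 to 7845 RPKM. Man2b2, a lysosomal mannosidase, stood at 25.5, 16.2 and 16.9 RPKM against at least 29.8 RPKM, and the cathepsin gene Ctso at 8.61, 4.16 and 4.36 RPKM against at least 9.60 RPKM (both with an adjusted p of 0.0622 by limma). The collagen-degrading cathepsin gene Ctsk went the other way, at 116.2, 27.3 and 28.0 RPKM against a median of 6.23 RPKM.

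Of 38 genes of transport between endoplasmic reticulum and Golgi, 30 had higher and 8 lower mean values, with a median difference of 0.24. None passed, and 9 lay above all others, against 1.24% of all genes tested, among them the COPI coat genes Copb1, Copb2 and Arcn1 and the COPII coat genes Sec13 and Sec31a. Sec13 stood at 114.1, 116.8 and 99.3 RPKM in Cheek 1, 2 and 3 against 55.9, 70.8 and 88.8 RPKM elsewhere (lowest, median, highest). The summed level was 2537, 2521 and 2393 RPKM against 1742 to 2571 RPKM, the last in Vestibular N 1.

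All 18 class I and II antigen presentation genes had lower mean values in the cheek tumors, with a median difference of -1.48, and none passed. Cheek 2 and 3 carried most of this. Cd74, the class II invariant chain, stood at 154.2, 4.25 and 5.30 RPKM in Cheek 1, 2 and 3 against 68.3, 363.4 and 1032 RPKM elsewhere, and H2-Aa at 76.8, 2.55 and 3.90 RPKM against 58.5, 193.2 and 930.8 RPKM. The class I gene H2-K1 stood at 292.6, 52.2 and 49.8 RPKM against 111.8, 415.0 and 691.9 RPKM. H2-M3, H2-L, H2-DMb2, Mr1 and Ifi30 lay below all others in all 3 cheek tumors, against 1.44% of all genes tested. Beside this, 10 of 13 leukocyte markers tested were lower in mean in the cheek tumors (median difference -0.67), and their part in it was not tested.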

How the data were processed

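RNA of frozen tumors was depleted of ribosomal RNA, made into stranded libraries and sequenced in a single pool. The authors aligned reads to mm10 with STAR, counted them on RefSeq genes with HTSeq and deposited 1 RPKM value per gene and tumor (24060 rows, 27 of them dates in place of symbols, kept but never named). The gene length and total behind RPKM are not given in the sources used here. The smallest RPKM steps, read with GENCODE M21 lengths, gave each tumor's total, and fragment numbers are whole within 0.02. RPKM values are not counts, so log2(RPKM + 1) was fitted with limma 3.58.1 (R 4.3.3, trended and robust variance) over 15043 genes (1 RPKM or more in 3 or more tumors). The scripts were tested on simulated data. Nothing states that tumors come from separate animals, so p-values measure the spread between these tumors.

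The gene lists and the cheek comparison were chosen with earlier results of these data known. Named genes were Mab21l2, Irs4 and Smarcb1, the 12 largest separated changes each way (called genes first, leaving out rows without a symbol and Gm, Rik, Mir, Snor and LOC names), up to 6 called members of each list or the 2 largest changes, the 6 largest gaps each way between Cheek 1 and the pair (same exclusions), and genes called against a single location. A gene that this rule names is not reported here. Dclk2, Lrba, Col4a5, Col4a6, the microRNA locus and further list members were added after their values were seen. Pseudocount, filter, scaling, variance model, pairing by identifier, fitted locations and each tumor were varied.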

Additional observations from a re-analysis of the deposited data

Results flagged for a closer look

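Within a group, a value was marked where its gap to the nearest of the others, divided by the range of the group on the log2(RPKM + 1) scale, was over Dixon's critical value. Chance marks about 1 in 20 groups. The marked values are not a full list of wide gaps among the named genes. Ltf in Retro-orbital 3 (2344 RPKM, with the other Retro-orbital tumors at 3.79 RPKM or lower) and Lhx8 in Cheek 1 (0.61 RPKM against 91.8 and 91.1) are not among them. Lcn11 in Retro-orbital 2 was far above the other Retro-orbital tumors (ratio 1.0, since the other 3 were at 0) and above the other 9 tumors together (0.538), at 0.42 RPKM and 8 fragments. Bpifb9b in Retro-orbital 2 (0.848, at 1.48 RPKM) and Krt6b in Retro-orbital 3 (0.871, at 0.35 RPKM) stood apart from the other Retro-orbital tumors. All 3 lay below the lowest cheek tumor.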

How the results depend on the processing

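Main counts were 2 genes higher, 0 lower, 186 above and 216 below without overlap, 4 against Retro-orbital and 7 against Meninges. Genes higher numbered 0 with pseudocount 0.1, 4 without a filter, 0 with 1 RPKM in 6 or more tumors (where Irs4 and Lcn11 were not tested), 0 with the pair averaged and 4 with 1 mean per location, where 1 gene was lower. Leaving out each tumor in turn gave 0 to 247 higher, 0 to 150 lower, 194 to 969 above and 223 to 1855 below, and 0 to 152 against Retro-orbital and 0 to 539 against Meninges. The highest count was without Cheek 1 each time. Without Cheek 2 or 3, 1 or 0 genes were higher and none was called against a location. Without Retro-orbital 2, 11 genes were higher and 9 lower, 404 lay below, and 2 and 15 were called against Retro-orbital and Meninges. Without Retro-orbital 1, 2 genes were lower and 335 lay below. Without Retro-orbital 3, 1 and 65 were called against the locations. Without Meninges 1, 3 genes were lower and none was called against Meninges, and without Meninges 2 the location counts were 7 and 2. Without Retro-orbital 4 none was called against Retro-orbital. With 3 against 7 tumors, 382 lay above and 508 below, and without Vestibular N 1, 321 and 413. Against Retro-orbital and Meninges the averaged pair gave 0 and 0, and pseudocount 0.1 gave 2 against Meninges. These causes were not tested.

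Irs4 lost its call with pseudocount 0.1 (difference 5.66) and the averaged pair (3.39), and ranged from 3.37 to 4.01 over the leave-outs (adjusted p 0.000655 to 0.124 by limma). Mab21l2 passed with the identifier as random block (3.93, within-identifier correlation 0.704), 3 against 7 tumors (3.96) and 1 mean per location (3.01), and ranged from 3.42 to 3.73 over the leave-outs (adjusted p 0.0201 to 0.412 by limma). Lcn11 ranged from 1.61 to 1.97, and had an adjusted p of 0.0639 in 3 against 7 tumors and 0.0758 with 1 mean per location. Quantile normalization moved the median difference over all genes from -0.10 to 0.00. After it the list medians for jaw mesenchyme, neural crest, retina and lens, and tooth turned from negative to positive. Size factors turned that for jaw mesenchyme only.

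Of the 97 other named genes, with 1455 alternative values, 28 values newly passed and 18 changed sign. The changes of sign were in genes that did not pass. They were Gng13 with pseudocount 0.1 (0.20), and with the averaged pair Eif2s3y (-0.031), Aard (0.75) and Nts (0.16). Over the leave-outs Ret ranged from -0.64 to 1.98, Amelx from -0.053 to 0.79, Gng13 from -0.73 to 0.79, Agtr2 from -1.31 to 2.32, Ltf from -1.03 to 2.42, Slc6a14 from -0.58 to 2.73, Cryba1 from -0.19 to 0.012, Eif2s3y from -0.085 to 2.82, Aard from -3.39 to 0.84 and Nts from -3.34 to 0.32. Replicate numbers are running numbers that pair no tumors, and the identifier was the only block fitted. Cheek 3 was the shallowest tumor, with 13206168 fragments, and its low values are the least precise.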
